A study of Mus musculus with 8 samples.

Results

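The genes described here are regulators of the Rab and Arf small GTPases, among them Dennd4a, in CD8 single-positive (CD8SP) thymocytes with and without Ndrg3. Members were all protein-coding genes of the deposited count table whose symbol begins with Dennd, Tbc1d, Rabgap1, Rab3gap, Iqsec, Asap, Acap, Agap, Arap or Arfgap, followed by nothing but letters and digits. There were 66 of them among the 47937 genes of the table. They comprised 14 DENND genes, 32 TBC genes (Rabgap1 and Rabgap1l included), 2 Rab3gap genes and 3 genes in each of the IQSEC, ASAP, ACAP, AGAP, ARAP and ARFGAP families.

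Bulk RNA-seq libraries had been made from CD8SP TCRβ+ thymocytes with high surface MHC-I, sorted from mice aged 6 to 7 weeks, with 1 library per mouse. The 4 Ndrg3ctrl mice were Ndrg3 +/fl;Lck-cre+ and the 4 Ndrg3TKO mice were Ndrg3 fl/fl;Lck-cre+, so the controls also carried Cre and 1 floxed Ndrg3 allele, and the groups differed in carrying 1 or 2 floxed alleles. Cre was driven by the proximal Lck promoter, which acts from an early stage of thymocyte development. Total counts per library ran from 21126698 in Ndrg3ctrl replicate 2 to 32668081 in Ndrg3TKO replicate 2. The summed counts of 4 Y-linked genes were 340.5, 379 and 416 CPM (counts scaled to the library total) in Ndrg3ctrl replicate 2, Ndrg3TKO replicate 2 and Ndrg3TKO replicate 3, and at most 0.0752 CPM in the other libraries, so that 1 of the 4 Ndrg3ctrl libraries and 2 of the 4 Ndrg3TKO libraries contained them.

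Rab and Arf GTPases are molecular switches on membranes that recruit the machinery for vesicle budding, transport, tethering and fusion, and in T cells they serve receptor recycling, integrin traffic and the immunological synapse. Exchange factors (GEFs) load a GTPase with GTP and turn it on, while GTPase-activating proteins (GAPs) accelerate GTP hydrolysis and turn it off. Proteins with a DENN domain are the largest family of Rab GEFs, TBC domain proteins are Rab GAPs, IQSEC proteins are Arf GEFs, and the ASAP, ACAP, AGAP, ARAP and ARFGAP proteins carry an Arf GAP domain.

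Ndrg3 itself, the targeted gene, was examined first. It lies on chromosome 2 of GRCm38 (chr2:156927345-156992056). Its counts normalized for library size were 2294, 2359, 2349 and 2342 in Ndrg3ctrl replicates 1 to 4 and 1460, 1402, 1537 and 1601 in Ndrg3TKO replicates 1 to 4. All 4 Ndrg3TKO libraries were below all 4 Ndrg3ctrl libraries, in the direction of the labels. The difference was −0.64 on the log2 scale (SE 0.0526), and edgeR's quasi-likelihood test gave an adjusted p of 1.04e-05. Reads were counted over all exons of the gene, the floxed exon included, so a count remaining in Ndrg3TKO does not measure intact transcript. The markers of mature CD8SP cells were present in all libraries, with Cd8a at 1358 and Cd3e at 1074 CPM on average. Cd4 was at 0.615 CPM.

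Among the 60 members with enough counts to be tested, Dennd4a and Iqsec1 passed as higher in Ndrg3TKO and none passed as lower. Dennd4a encodes a Rab10 GEF and rose 1.75-fold. Iqsec1 encodes an Arf6 GEF, also known as BRAG2, and rose 1.35-fold. The 2 members that passed an adjusted p of 0.05 were 3.33% of those tested, against 1.15% of all 14633 tested genes, and 0.793% of all tested genes passed in the upward and 0.355% in the downward direction. With 2 genes, this share says little about the members as a group.

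Of the 60 log2 fold changes, 30 were above and 30 below 0, with a median of 0.00014 beside −0.0033 over all tested genes. The median size of a change, regardless of sign, was 0.08 on the log2 scale for members and 0.09 for all tested genes. In 35 members the change was under 0.1 and in 50 it was under 0.2. The 95% interval of the log2 fold change reached a median of 0.14 to either side of the estimate and lay wholly within ±0.5 in 49 members, so that larger changes lay outside the interval for most of them. At an unadjusted p under 0.05 there were 8 members (Dennd4a, Iqsec1, Dennd4c, Tbc1d1, Arap2, Tbc1d12, Rabgap1l and Dennd2d), or 8 of 60, where 10.9% of all tested genes were below it. The 4 Ndrg3TKO libraries did not overlap the 4 Ndrg3ctrl libraries in 6 members, of which Dennd4a, Iqsec1, Dennd4c and Tbc1d12 were higher and Tbc1d1 and Arap2 lower. In all tested genes the groups did not overlap in 7.04%, with 3.44% higher and 3.59% lower in Ndrg3TKO.

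**Figure D1:**
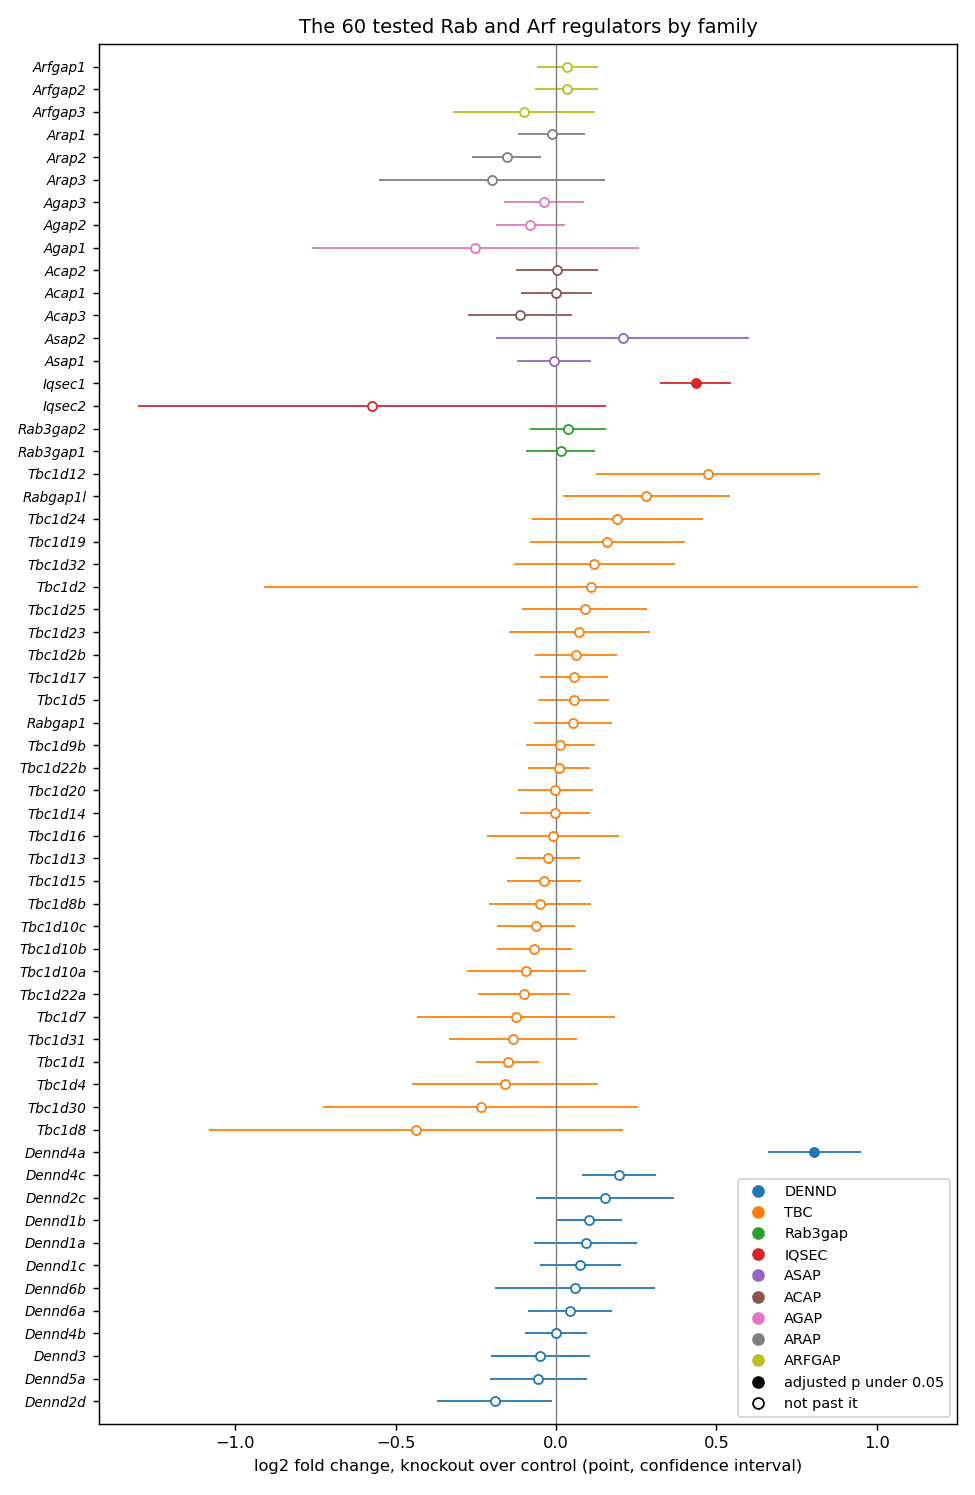
Log2 fold change of Ndrg3TKO over Ndrg3ctrl (horizontal axis) for each of the 60 tested members, grouped by family; points are edgeR estimates, lines their 95% intervals, and filled points have an adjusted p under 0.05. Dennd4a and Iqsec1 are the filled points, and most other intervals cross 0.

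Dennd4a was the member with the largest change. It encodes a DENN domain GEF of Rab10, a Rab of exocytic and recycling membranes, and was first described as a protein that binds the MYC promoter. The gene lies on the plus strand of chromosome 9 (chr9:64811340-64919667), and no exon of another annotated gene overlapped its exons. Normalized counts were 2451, 2179, 2425 and 2594 in Ndrg3ctrl replicates 1 to 4 and 4090, 3788, 4466 and 4530 in Ndrg3TKO replicates 1 to 4. The lowest Ndrg3TKO library was far above the highest Ndrg3ctrl library, and the gap between the groups was wider than the range within either. The mean was 2412 ± 173 (SD, n = 4) in Ndrg3ctrl and 4219 ± 346 (SD, n = 4) in Ndrg3TKO. The log2 fold change was 0.81 with a 95% interval from 0.66 to 0.95 (SE 0.0673, adjusted p = 1.14e-05, edgeR's quasi-likelihood test). Among the 14633 tested genes it was at rank 11 by p, and among the 116 genes that passed in the upward direction it was at rank 43 by fold change. Because the RNA was of pooled cells, a rise in every cell and a rise in a fraction of the cells cannot be told apart, nor can fewer cells of a type and less RNA per cell.

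Dennd4a was also compared among libraries alike in Y-linked counts, as values with no test. Where these were present, Dennd4a was at 2179 normalized counts in the single Ndrg3ctrl library and at a mean of 4127 in the 2 Ndrg3TKO libraries, a log2 ratio of 0.92. Where they were absent, the means were 2490 over 3 and 4310 over 2 libraries, a log2 ratio of 0.79.

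Dennd4b and Dennd4c, the closest paralogues of Dennd4a and likewise Rab10 GEFs, did not pass the test. Dennd4b had 6323, 6220, 6523 and 6476 normalized counts in Ndrg3ctrl and 6250, 6390, 6585 and 6314 in Ndrg3TKO replicates 1 to 4. The groups overlapped almost completely, and the 95% interval of the log2 fold change ran from −0.10 to 0.10. Dennd4c had 1829, 1827, 1941 and 1851 in Ndrg3ctrl and 2057, 2185, 2284 and 2002 in Ndrg3TKO. All Ndrg3TKO libraries were above all Ndrg3ctrl libraries by a small margin (log2 fold change 0.19, interval 0.08 to 0.31), and the adjusted p was 0.130 in edgeR's test.

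Within the trio, Dennd4a therefore took a larger part of the RNA in Ndrg3TKO. Scaled by library size and exon length (RPKM), the level of Dennd4a was 5.01 ± 0.359 (SD, n = 4) in Ndrg3ctrl and 8.76 ± 0.719 in Ndrg3TKO, that of Dennd4b was 36.6 in both groups and that of Dennd4c 7.59 ± 0.218 and 8.69 ± 0.518. By RPKM, Dennd4a was the lowest of the trio in every Ndrg3ctrl library, at 0.608 to 0.714 of the Dennd4c level. In Ndrg3TKO the RPKM ratio to Dennd4c was 0.883 to 1.15, and Dennd4a and Dennd4c were no longer ordered by RPKM. This order depends on the exon lengths used, 16643 bases for Dennd4a and 8482 for Dennd4c. In normalized counts Dennd4a was above Dennd4c in every library of both groups. The share of Dennd4a in the summed RPKM of the trio was at most 10.8% in Ndrg3ctrl and at least 14.7% in Ndrg3TKO, and the groups did not overlap. The summed RPKM itself was 47.6 to 50.3 and 52.7 to 56.3, and Dennd4b made up most of it in both genotypes. The log2 ratio of Dennd4a to Dennd4b rose by 0.81 and that to Dennd4c by 0.61 from Ndrg3ctrl to Ndrg3TKO. These ratios were chosen after the rise of Dennd4a was known, carry its own difference, and are given as a description.

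**Figure D2:**
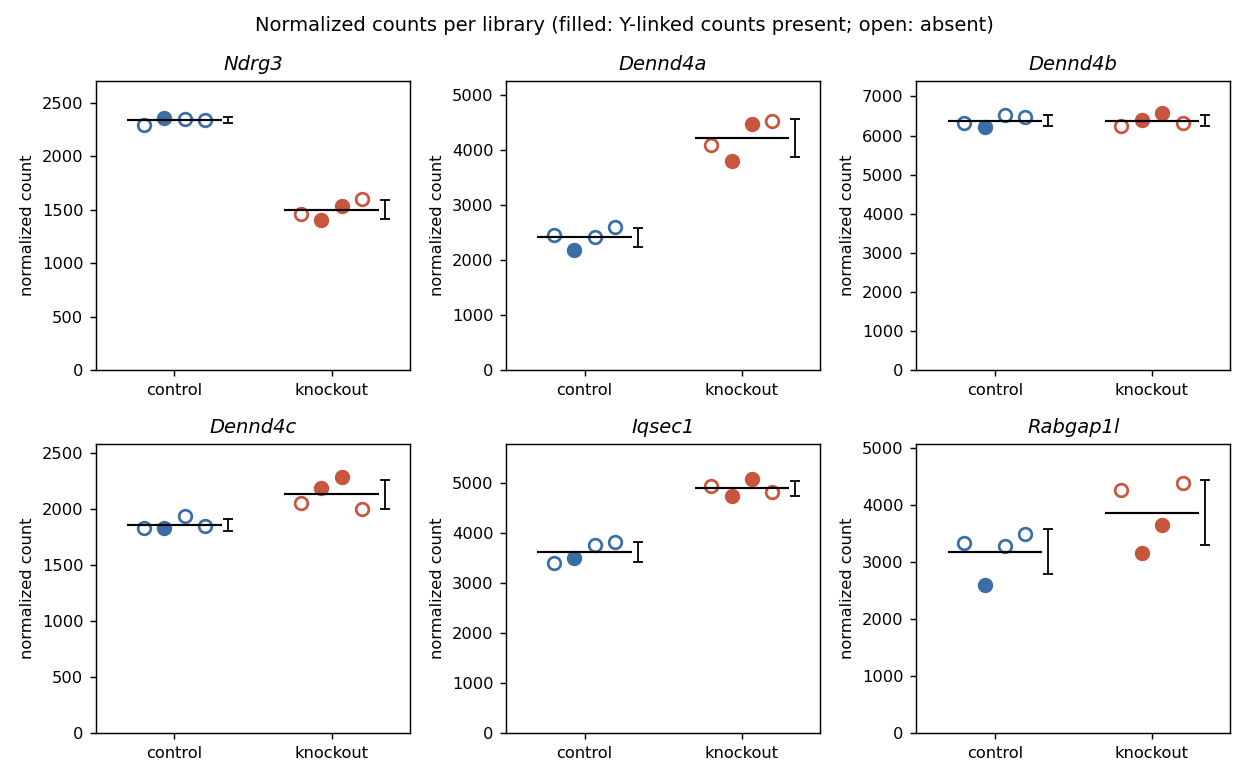
Normalized counts (vertical axes, from 0) of Ndrg3, Dennd4a, Dennd4b, Dennd4c, Iqsec1 and Rabgap1l in the 4 Ndrg3ctrl (control) and 4 Ndrg3TKO (knockout) libraries; points are libraries, filled where Y-linked counts were present, lines are means and bars the SD. The groups are apart for Ndrg3, Dennd4a, Dennd4c and Iqsec1 and overlap for Dennd4b and Rabgap1l.

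None of the other 9 tested DENND genes passed the threshold. Dennd1a, Dennd1b and Dennd1c encode Rab35 GEFs, and Dennd1b acts in T cells in the removal of the antigen receptor from the surface. Dennd1b had 5083, 4770, 5054 and 4886 normalized counts in Ndrg3ctrl and 5417, 5226, 5078 and 5519 in Ndrg3TKO. The highest Ndrg3ctrl library was just above the lowest Ndrg3TKO library (log2 fold change 0.10, interval −0.0016 to 0.20, adjusted p = 0.466 in edgeR's test). Dennd1c, the DENND gene with the highest level, was at 42.7 ± 3.12 RPKM in Ndrg3ctrl and 44.9 ± 2.08 in Ndrg3TKO (SD, n = 4 each). Dennd2d, of the Rab9 GEF family, had 6386, 6975, 6963 and 8230 normalized counts in Ndrg3ctrl and 5544, 6005, 6997 and 6455 in Ndrg3TKO. Its highest Ndrg3TKO library was above 3 of the 4 Ndrg3ctrl libraries (log2 fold change −0.19, interval −0.37 to −0.01, adjusted p = 0.422). Exons of 2010016I18Rik and Cept1 on the opposite strand cover 5.93% and 11.2% of the Dennd2d exons, and whether the counting used strand is not given in the sources used here. The remaining genes, among them Dennd3 (a Rab12 GEF), Dennd5a (a Rab39 GEF), and Dennd6a and Dennd6b (Rab14 GEFs), had log2 fold changes between −0.06 and 0.15. Dennd2a and Dennd5b were not tested, with at most 2 and 3 counts in any library.

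Iqsec1 was the other member that rose. The protein loads Arf6 with GTP at the cell surface and in endosomes and is known for its part in the endocytosis of integrins. The gene lies on the minus strand of chromosome 6 (chr6:90656088-90988685). Normalized counts were 3406, 3512, 3758 and 3829 in Ndrg3ctrl replicates 1 to 4 and 4956, 4738, 5089 and 4831 in Ndrg3TKO replicates 1 to 4. The lowest Ndrg3TKO library was above the highest Ndrg3ctrl library by more than the range of either group. The mean was 3626 ± 200 (SD, n = 4) in Ndrg3ctrl and 4904 ± 153 (SD, n = 4) in Ndrg3TKO. The log2 fold change was 0.44 with an interval from 0.32 to 0.55 (SE 0.0520, adjusted p = 4.76e-04, edgeR's quasi-likelihood test). It was at rank 23 by p among all tested genes and at rank 77 by fold change among the 116 that passed in the upward direction. Where Y-linked counts were present the log2 ratio of the means was 0.48 (1 against 2 libraries) and where they were absent it was 0.42 (3 against 2 libraries). An antisense gene, Gm44123, shares 574 exonic bases with Iqsec1, or 4.95% of its exons, and had at most 2 counts in any library.

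Iqsec1 supplied nearly all IQSEC RNA in these cells. Its level was 10.8 ± 0.595 RPKM in Ndrg3ctrl and 14.6 ± 0.455 in Ndrg3TKO (SD, n = 4 each), at least 99.1% of the summed IQSEC RPKM in every library. Iqsec2, an X-linked Arf GEF best known from the synapses of neurons, had 18.4, 14.2, 8.82 and 12.7 normalized counts in Ndrg3ctrl and between 6.77 and 10.7 in the Ndrg3TKO libraries. The groups overlapped, and at this depth the interval of its log2 fold change was wide, from −1.30 to 0.16. Iqsec3 had no count in any library, which allows at most between 0.0918 and 0.142 CPM per library (a floor of 3 counts, covering counting error only).

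For the 2 genes that rose, the 250 bases before each transcription start listed from RefSeq on GRCm38.p6 are shown 5′ to 3′ on the gene's own strand, since a start is where both can be compared with all other genes. Capitals mark the GC box GGGCGG and the CCAAT box CCAAT, each on either strand. They are Dennd4a at chr9:64810761-64811010 (plus strand) and, for the 2 listed starts of Iqsec1, chr6:90716530-90716779 and chr6:90810124-90810373 (minus strand), both inside the span that GENCODE gives the gene.
Dennd4a: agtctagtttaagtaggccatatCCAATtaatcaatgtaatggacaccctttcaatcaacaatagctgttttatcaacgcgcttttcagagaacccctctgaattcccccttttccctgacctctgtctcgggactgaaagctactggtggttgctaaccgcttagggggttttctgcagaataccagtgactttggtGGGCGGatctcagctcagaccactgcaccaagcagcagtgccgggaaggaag
Iqsec1, downstream start: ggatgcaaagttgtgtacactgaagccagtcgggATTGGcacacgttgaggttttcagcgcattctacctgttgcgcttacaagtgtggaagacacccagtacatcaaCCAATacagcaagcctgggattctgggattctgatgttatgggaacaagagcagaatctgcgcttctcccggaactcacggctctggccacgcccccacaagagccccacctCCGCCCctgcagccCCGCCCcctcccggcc
Iqsec1, upstream start: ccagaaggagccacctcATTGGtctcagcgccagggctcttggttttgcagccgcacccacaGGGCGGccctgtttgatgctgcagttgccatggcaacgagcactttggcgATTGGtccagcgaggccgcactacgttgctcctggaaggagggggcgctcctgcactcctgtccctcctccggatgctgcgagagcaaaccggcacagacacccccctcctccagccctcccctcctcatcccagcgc

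The Dennd4a window holds 1 GC box and 1 CCAAT box, and its GC content is 48.4% with 6 CpG. The Iqsec1 windows hold 2 and 1 GC boxes and 2 CCAAT boxes each, at a GC content of 57.6% and 64.8%. By comparison, the window of Dennd4c has 3 GC boxes, no CCAAT box and a GC content of 70.8%, and the 2 windows of Dennd4b have 1 GC box each and no CCAAT box. Of all 32851 RefSeq windows of this length, 32.7% hold a GC box and 33.8% a CCAAT box. Among the 74 windows of the 54 members that matched the table, these shares were 63.5% and 25.7%. The members' windows were also richer in GC, with a median of 63.6% against 52.4% for all windows. The ETS letters CCGGAAG (6.91% of all windows), the E box CACGTG (6.02%) and the T-box letters TCACACC (3.33%), searched on both strands, were in none of the 6 windows of Dennd4a, Dennd4b, Dennd4c and Iqsec1. Matches of different motifs could overlap, and none did in the windows shown. Letters in a window are a description and not evidence of binding.

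None of the 30 tested TBC genes passed the threshold, with 14 log2 fold changes above and 16 below 0 and a median of −0.0035. Tbc1d12, which resembles the Rab11-binding Tbc1d14, had the largest estimate, with 91.2, 78.2, 93.1 and 73.0 normalized counts in Ndrg3ctrl and 128, 97.2, 141 and 102 in Ndrg3TKO. The Ndrg3TKO libraries were all higher, by a narrow margin (log2 fold change 0.47, interval 0.12 to 0.82, adjusted p = 0.263 in edgeR's test). Rabgap1l, a Rab GAP of endosomes, had 3336, 2597, 3268 and 3492 in Ndrg3ctrl and 4265, 3150, 3651 and 4378 in Ndrg3TKO. In both groups replicate 2 was the lowest, and the groups overlapped (log2 fold change 0.28, interval 0.02 to 0.54, adjusted p = 0.419). Among libraries alike in Y-linked counts, the log2 ratio of the Rabgap1l means was 0.39 where these counts were present (1 against 2 libraries). Where they were absent it was 0.36 (3 against 2 libraries). With Y-linked counts as a covariate Rabgap1l passed (log2 fold change 0.37, adjusted p = 0.00117 in edgeR's test), as did 2.99% of all genes. It also passed in the libraries without these counts (0.36, adjusted p = 0.0165 in edgeR's test), where 0.611% of all genes did. That last fit was added after the data were seen.

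Tbc1d1 and Tbc1d4 are the Akt-regulated GAPs that hold back Rab10 and related Rabs until they are phosphorylated, best known from glucose transporter traffic. Tbc1d1 had 3524, 3535, 3576 and 3772 normalized counts in Ndrg3ctrl and 3156, 3300, 3241 and 3284 in Ndrg3TKO. The Ndrg3TKO libraries were all lower, but by little (log2 fold change −0.15, interval −0.25 to −0.05, adjusted p = 0.183 in edgeR's test). Tbc1d4 was far less abundant, at 0.877 ± 0.0815 RPKM in Ndrg3ctrl and 0.786 ± 0.127 in Ndrg3TKO (SD, n = 4 each), with overlapping groups and a log2 fold change of −0.16 (interval −0.45 to 0.13) that was −0.0031 in the libraries without Y-linked counts.

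Tbc1d10c, which encodes carabin, an inhibitor of calcineurin and Ras in lymphocytes, had the highest level of any member, at 99.1 ± 7.48 RPKM in Ndrg3ctrl and 95.0 ± 1.69 in Ndrg3TKO (SD, n = 4 each). Its log2 fold change was −0.06 (interval −0.18 to 0.06). Exons of a processed transcript on the same strand, AC109138.8, cover 35.5% of its exons, so the level is uncertain. Tbc1d22b followed among the TBC genes at 26.1 ± 0.434 and 26.3 ± 0.781 RPKM. The other TBC genes include the Rab35 GAPs Tbc1d10a, Tbc1d10b and Tbc1d13, the Rab7 GAPs Tbc1d5 and Tbc1d15, the Rab1 GAP Tbc1d20 and the TSC complex subunit Tbc1d7. For these named genes the log2 fold changes lay between −0.12 and 0.05. The lowest estimate among the TBC genes was that of Tbc1d8, at −0.44 (interval −1.08 to 0.21), a gene at 0.124 ± 0.0426 RPKM in Ndrg3ctrl and 0.0934 ± 0.0082 in Ndrg3TKO (SD, n = 4 each). Tbc1d9 and Tbc1d21 were not tested, with at most 7 and 0 counts in any library. The complex of Rab3gap1 and Rab3gap2 acts as a GAP on Rab3 and as a GEF on Rab18. Rab3gap1 was at 10.9 ± 0.523 and 11.0 ± 0.358 RPKM and Rab3gap2 at 5.95 ± 0.378 and 6.10 ± 0.145 in Ndrg3ctrl and Ndrg3TKO, and both intervals of the log2 fold change lay between −0.10 and 0.16.

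The 14 tested Arf GAP genes had no call in either direction, with 5 log2 fold changes above and 9 below 0. Arap2, whose protein combines Arf6 GAP activity with binding of phosphoinositides, had 3847, 3766, 3881 and 3694 normalized counts in Ndrg3ctrl and 3574, 3169, 3507 and 3399 in Ndrg3TKO. All Ndrg3TKO libraries were lower (log2 fold change −0.15, interval −0.26 to −0.05), and the adjusted p was 0.220 in edgeR's test. Arap1, an Arf GAP of the Golgi and endosomes, was at 17.2 ± 0.263 RPKM in Ndrg3ctrl and 17.1 ± 0.834 in Ndrg3TKO.

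Acap1 and Acap2 switch off Arf6, the GTPase that Iqsec1 switches on, and Acap1 was the second most abundant member. Its level was 89.1 ± 3.79 RPKM in Ndrg3ctrl and 89.2 ± 2.60 in Ndrg3TKO (SD, n = 4 each), with an interval of the log2 fold change from −0.11 to 0.11. For Acap2 these were 22.7 ± 1.63 and 22.8 ± 1.22 RPKM and −0.12 to 0.13. Asap1, an Arf GAP of focal adhesions and podosomes, was at 14.6 RPKM in both groups (interval −0.12 to 0.11). Its relative Asap2 was at 0.315 ± 0.0203 and 0.364 ± 0.0861 RPKM, and Asap3 had at most 15 counts and was not tested. Agap2, also called PIKE and known to bind phosphoinositide 3-kinase and Akt, was at 47.1 ± 1.30 and 44.5 ± 2.11 RPKM (interval −0.19 to 0.03), and Agap3 at 13.1 ± 0.918 and 12.8 ± 0.555. The Golgi and COPI coat GAPs Arfgap1 and Arfgap2 were at 17.4 ± 0.319 and 17.8 ± 0.355, and at 30.1 ± 1.03 and 30.7 ± 0.521 RPKM. Exons of 1110051M20Rik on the opposite strand cover 33.4% of those of Arfgap2.

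Levels spanned more than 3 orders of magnitude. The lowest tested member by RPKM was Iqsec2 at 0.0558 over all libraries and the highest Tbc1d10c at 97.1, with a median of 8.22 over the 60 tested members beside 6.12 over all tested genes. After Tbc1d10c and Acap1, whose levels were close, came Agap2, Dennd1c, Dennd4b, Dennd2d and Arfgap2. The libraries of Tbc1d10c and Acap1 overlapped in level in Ndrg3ctrl but not in Ndrg3TKO, and those of Agap2 and Dennd1c overlapped in both groups. Dennd4b and Dennd2d overlapped in Ndrg3ctrl only, and Dennd2d and Arfgap2 in Ndrg3TKO only. The 66 members together took 0.476% to 0.536% of all counts in Ndrg3ctrl libraries and 0.487% to 0.526% in Ndrg3TKO libraries, ranges that overlap. RPKM here divides by the union of all annotated exons, so genes with many long annotated transcripts are placed low.

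**Figure D3:**
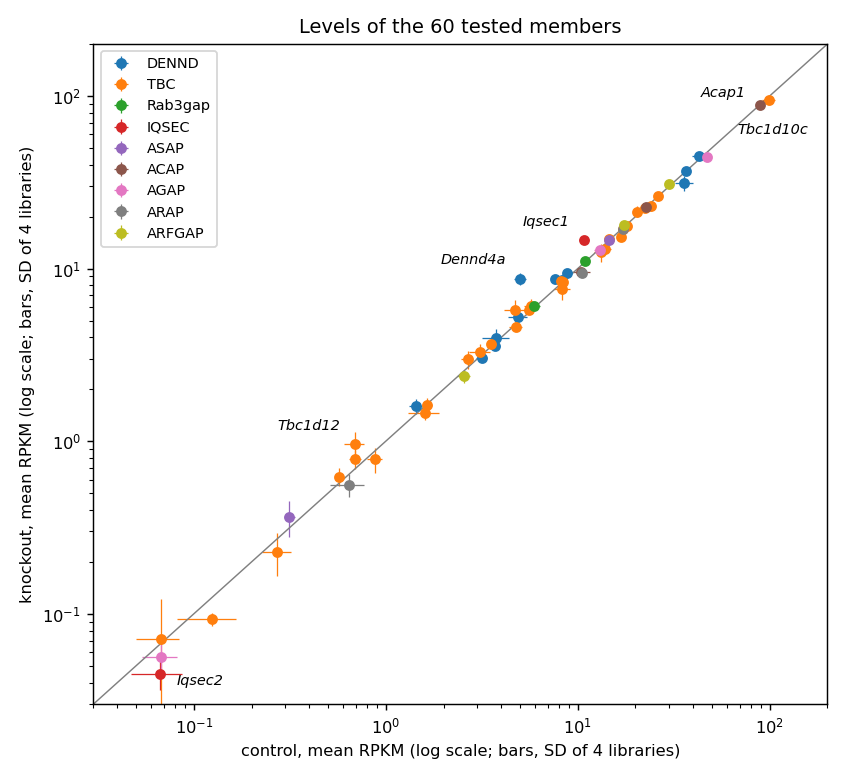
Mean RPKM of each tested member in Ndrg3ctrl (horizontal) and Ndrg3TKO (vertical), both axes on a log scale, with bars for the SD of 4 libraries and a line of equal level. Dennd4a and Iqsec1 stand above the line, and Tbc1d10c and Acap1 have the highest levels.

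Other genes of the Rab and Arf cycles were examined in 7 lists, of which 129 of 152 genes were tested. By edgeR's test none passed, against 1.15% of all tested genes, while 13 of the 129 had an unadjusted p under 0.05, as did 10.9% of all tested genes, and 2 (Ric1 and Agfg1) passed with DESeq2, by which 1.93% of all genes tested were called. The lists were the Rab GTPases (42 of 59 tested), Arf and Arf-like GTPases (26 of 28), other Rab GEFs (28 of 29), other Rab GAPs (6 of 8), other Arf GEFs (13 of 13), other Arf GAPs (7 of 8) and the factors that lipidate Rabs or extract them from membranes (7 of 7). The median log2 fold change of a list lay between −0.02 and 0.06.

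The GTPases on which the members that rose are known to act did not pass the test. Rab10, the substrate of the DENND4 proteins, had 5550, 5488, 4732 and 5006 normalized counts in Ndrg3ctrl and 5274, 5428, 5536 and 5035 in Ndrg3TKO. Arf6, the substrate of Iqsec1, had 9074, 9680, 8269 and 7938 in Ndrg3ctrl and 7974, 8968, 7730 and 7705 in Ndrg3TKO. Both genes overlapped between the groups, and the intervals of their log2 fold changes were −0.09 to 0.16 for Rab10 and −0.26 to 0.04 for Arf6. Rab35, the substrate of the DENND1 proteins, had a mean of 2607 ± 136 and 2523 ± 62.4 (SD, n = 4 each; interval −0.16 to 0.06).

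Nearest to the threshold among the listed genes was Ric1, a subunit of the Rab6 GEF at the Golgi, which had 2846, 2618, 2791 and 2743 normalized counts in Ndrg3ctrl and 3164, 2968, 3106 and 3264 in Ndrg3TKO. The groups did not overlap (log2 fold change 0.18, interval 0.08 to 0.29, adjusted p = 0.116 in edgeR's test). Agfg1, an Arf GAP-domain protein, had a log2 fold change of 0.25 (interval 0.10 to 0.40, adjusted p = 0.127) and likewise did not overlap, and Rab3ip, a Rab8 GEF, had −0.18 (interval −0.30 to −0.06, adjusted p = 0.186) with overlapping groups. These 3 genes were named after their values were seen.

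**Figure D4:**
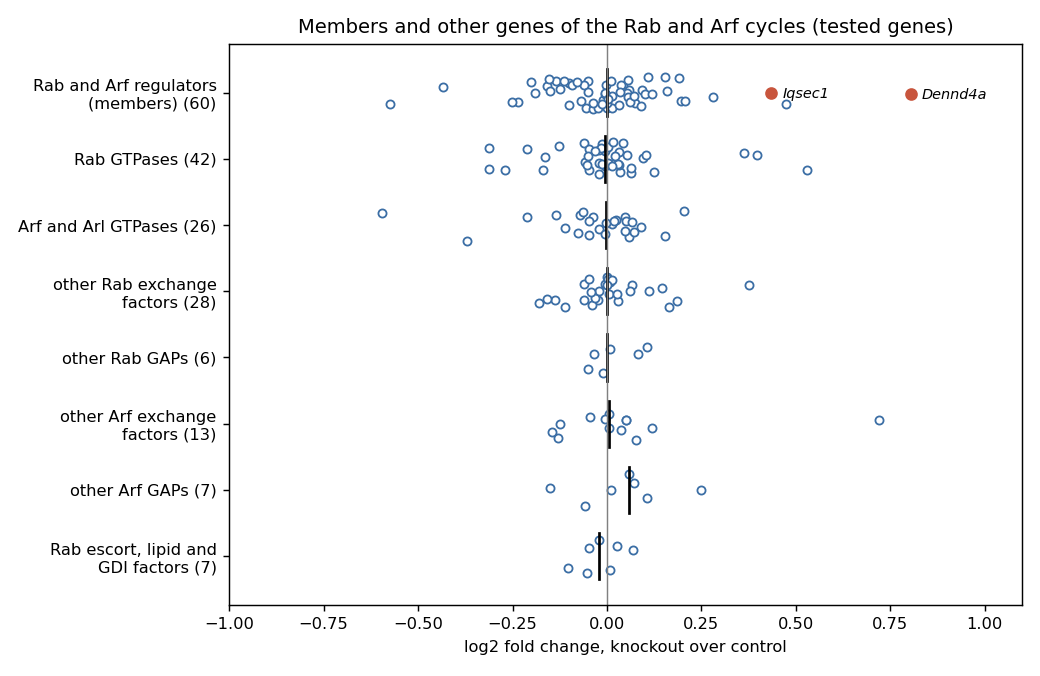
Log2 fold change of Ndrg3TKO over Ndrg3ctrl (horizontal) for the 60 tested members and for the tested genes of the 7 other lists of the Rab and Arf cycles; points are genes, filled where the adjusted p was under 0.05, and vertical bars are list medians. Dennd4a and Iqsec1 are the filled points, and the medians lie close to 0.

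The genes beside Dennd4a and Iqsec1 on the chromosome were also examined. Dennd4a lies between Rab11a, 73582 bases away, and Ints14, 41238 bases away, whose log2 fold changes were −0.0041 and −0.07. Iqsec1 lies between Slc41a3, at −0.37 (adjusted p = 0.242, edgeR's test), and Nup210, at −0.06 on the same log2 scale. Neither these nor the next tested protein-coding gene on each side (Megf11, Hacd3, Aldh1l1 and Hdac11) passed the threshold.

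Markers of other cells and measures of the libraries are given beside the rise of Dennd4a and Iqsec1. All 16 mature CD8SP markers were tested and none was called, and their summed level was 11237 CPM in Ndrg3ctrl and 11131 CPM in Ndrg3TKO on average. Of 9 markers of immature or double-positive thymocytes, 7 were tested and none called, with summed levels of 50.4 to 62.2 CPM in Ndrg3ctrl and 53.9 to 66.9 CPM in Ndrg3TKO, led by Cd24a at 24.0 CPM. Of these, Dntt, the terminal transferase of immature thymocytes, was at 14.1 to 18.6 CPM in Ndrg3ctrl and 18.7 to 25.5 CPM in Ndrg3TKO without overlap (log2 fold change 0.45, adjusted p = 0.0783 in edgeR's test), and its part in the results was not tested. The 5 CD4 and regulatory T cell markers (led by Ctla4 at 6.66 CPM) summed to 12.3 and 13.1 CPM on average in Ndrg3ctrl and Ndrg3TKO, and the 6 γδ T cell markers in the table (led by Trdc at 12.0 CPM, with Il17a at 0) to 14.6 and 13.6 CPM.

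The 7 NK and NKT cell markers summed to 0.790 to 1.51 CPM in Ndrg3ctrl and 2.09 to 2.85 CPM in Ndrg3TKO, and these ranges did not overlap. Klrb1c, the most abundant of them at 1.04 CPM, was the only one called, higher in Ndrg3TKO, and without it the other 6 summed to 0.677 to 0.899 CPM in Ndrg3ctrl and 0.531 to 0.783 CPM in Ndrg3TKO. Zbtb16, the transcription factor of NKT cells, was at 0.150 to 0.333 CPM in Ndrg3ctrl and 0.0306 to 0.0939 CPM in Ndrg3TKO, too low to be tested, and Ncr1 was at 0 in every library. The part of this difference in the rise of Dennd4a and Iqsec1 was not tested. The 7 B cell markers summed to 289.6 and 295 CPM on average, of which Ighm made up 267 CPM, with Ms4a1 at 0. Cd79b, of the B cell receptor, was at 10.8 to 13.4 CPM in Ndrg3ctrl and 8.15 to 9.30 CPM in Ndrg3TKO without overlap (log2 fold change −0.43, adjusted p = 0.0529 in edgeR's test). The 9 myeloid markers (led by Cst3 at 20.2 CPM) summed to 23.0 and 22.9 CPM and the 8 epithelial and stromal markers (led by Pecam1 at 157 CPM) to 166 and 155 CPM. After Pecam1, the highest epithelial or stromal marker was Epcam at 1.97 CPM on average. The 6 erythroid markers were at 0.232 CPM or less in sum in every library, and Hbb-bs, Hba-a1 and Hbb-bt were at 0. Mitochondrial transcripts made up 0.820%, 0.817%, 0.803% and 0.636% of counts in Ndrg3ctrl replicates 1 to 4 and 0.694%, 0.682%, 0.712% and 0.571% in Ndrg3TKO, and their part in the results was not tested.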

How the data were processed

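RNA had been extracted from sorted thymocytes and libraries made with a stranded total RNA kit with ribosomal RNA depletion. The authors used cutadapt for trimming, STAR for alignment to GRCm38.p4 (GENCODE M9 genes) and featureCounts for counting, all within snakePipes, and deposited raw counts, which are not normalized. How strand and multimapping reads were counted is not given in the sources used here. Groups and replicate numbers came from the sample labels. Symbols, positions and exon lengths came from GENCODE M21 (GRCm38) by Ensembl identifier, and 47310 genes (98.7%) matched. Promoter windows came from RefSeq.

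Counts were tested with edgeR 4.0.16 (R 4.3.3) on all 8 libraries with filterByExpr by group, TMM scaling, glmQLFit (robust) and glmQLFTest, and p-values were adjusted by the Benjamini-Hochberg method over 14633 genes. Standard errors were derived from the fold change and its F statistic, and intervals are at 95%. Normalized counts are scaled to the mean library, and RPKM uses the union of exons. Libraries of one group differed by a chi-square of 9.26 to 32.3 per gene, so none was a duplicate. The labels call the replicates biological, and the study's design gives 4 per group. Alternatives were DESeq2 1.42.0, other scalings and filters, the replicate number as a block, Y-linked counts as a covariate, leaving out each library and, added after the data were seen, only the libraries without Y-linked counts. The fit was tested on simulated counts. A floor of 3 counts corresponded to 0.0918 to 0.142 CPM, which covers counting error only, as reads from PCR without molecular identifiers cannot be taken as independent.

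The members, the lists of other genes and the tests were chosen with earlier results of these data known. Genes named were Ndrg3, members past the threshold or with an unadjusted p under 0.05 and their closest paralogues, the 2 members of each family with the highest RPKM, Tbc1d10c, Dennd1b, Tbc1d4 and Rabgap1l, and Rab10, Rab35 and Arf6. Further names were chosen after their values were seen.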

Additional observations from a re-analysis of the deposited data

Results flagged for a closer look

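Mitochondrial transcripts made up 0.636% of counts in Ndrg3ctrl replicate 4, below the other 3 Ndrg3ctrl libraries at 0.803% to 0.820%, a gap that was large for a group of 4 libraries by Dixon's test. Without this library, Dennd4a and Iqsec1 remained past the threshold. The summed Y-linked level of Ndrg3ctrl replicate 2 was 340.5 CPM, with the other Ndrg3ctrl libraries at 0 to 0.0752 CPM, and was picked out by the same test. In all, 66 groups were examined, where chance alone would give about 3.3 such cases (1 in 20), and 2 were found.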

How the results depend on the processing

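Dennd4a and Iqsec1 were past the threshold, and higher in Ndrg3TKO, in each of the 17 other fits. Over the 9 other settings, the log2 fold change of Dennd4a was 0.79 to 0.84 (highest adjusted p = 1.83e-04, edgeR or DESeq2) and that of Iqsec1 0.42 to 0.44 (highest adjusted p = 0.00887). With each library left out in turn it was 0.76 to 0.85 (highest adjusted p = 1.91e-04, edgeR) and 0.41 to 0.46 (highest adjusted p = 0.00315), and the log2 difference of Dennd4a from Dennd4b was 0.76 to 0.86 and from Dennd4c 0.55 to 0.67. Members past the threshold numbered 2 in each of these leave-one-out fits and in all settings but the replicate block (7), Y-linked counts as a covariate (3) and the libraries without Y-linked counts only (3). The third member in the latter 2 settings was Rabgap1l.

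The replicate number as a block gave 800 of all genes (5.47%), 7 members (Dennd4c and Rabgap1l higher and Arap2, Dennd2d and Tbc1d1 lower beside Dennd4a and Iqsec1) and 3 listed pathway genes (Agfg1, Rab3ip and Ric1). For replicates 1 to 4, the deviations of the libraries that share a number from their group means had r = 0.240, 0.512, −0.0572 and 0.387 over genes, which are not independent replicates, so not every pair deviated together, and the labels do not say what a number shares. The libraries numbered 1, 2 and 4 each correlated best with their own number in the other group, and those numbered 3 did not, which is a hint from the data and not part of the design.

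All genes past the threshold numbered 168 and, with DESeq2, 309, without a filter on low counts 274, with Y-linked counts as a covariate 437 (2.99%), in the libraries without Y-linked counts 92 (0.611%), and with each library left out 90 to 158. Listed pathway genes numbered 2 with DESeq2 (Agfg1 and Ric1), 1 without a filter (Agfg1), 2 with the covariate (Agfg1 and Ric1) and 0 to 1 with each library left out (Agfg1 without Ndrg3TKO replicate 2). The cause of these differences was not tested.

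Signs were followed for the genes named by rule, not for every member, and those that turned belonged to genes close to 0 that never passed. The log2 fold change of Dennd4b was 0.000238 with RLE size factors, 0.00448 with library totals, 0.00166 without a filter, 0.00144 with a mean of at least 1 CPM, and −0.0154 to 0.00978 with libraries left out. That of Asap1 was 0.000189 with the covariate and −0.0391 to 0.0332 with libraries left out, that of Acap1 −0.0159 in the libraries without Y-linked counts and −0.0161 to 0.0277 with libraries left out, and that of Agap3 0.0185 in the libraries without Y-linked counts. With libraries left out, Rab3gap1 ran from −0.0199 to 0.0322, Rab10 from −0.00833 to 0.0692, Acap2 from −0.0321 to 0.0527, Arap1 from −0.0472 to 0.00772 and Tbc1d22b from −0.00649 to 0.0279. Of the named estimates short of the threshold and over 0.1 in size, 6 shifted by over 1.5 times in some setting, while smaller ones are not given singly. That of Tbc1d4 (−0.16) was −0.0031 in the libraries without Y-linked counts, −0.0521 without Ndrg3TKO replicate 2 and −0.0931 without Ndrg3ctrl replicate 1, that of Dennd4c (0.19) was 0.116 (adjusted p = 0.659, edgeR) in the libraries without Y-linked counts, and that of Dennd2d (−0.19) was −0.118 without Ndrg3ctrl replicate 4. Asap2 (0.21) was at 0.0320 without Ndrg3TKO replicate 1 and at 0.373 in the libraries without Y-linked counts, Iqsec2 (−0.57) at −0.368 without Ndrg3ctrl replicate 1 and Arf6 (−0.11) at −0.0602 without Ndrg3ctrl replicate 2. Depth limits what can be said of Iqsec2, Tbc1d2 and Tbc1d8, whose intervals are the widest, and of the 6 members not tested.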
